A study of Mus musculus with 6 samples.

Results

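The genes described here are the numbered zinc finger protein genes of the mouse (symbols made of Zfp, a number and at most 1 further letter) that were expressed in the nucleus accumbens, a reward centre of the basal forebrain densely supplied with dopamine. Their levels are in FPKM (fragments per unit of transcript length and of sequencing depth). Of 342 symbols that match this name, 263 had a test of status OK and a mean of the cocaine and saline values of at least 1 FPKM, out of 14202 genes under the same level rule. Another 68 were tested but lay under that mean, and 11 had no test. The members were thus chosen by name and by the mean of both values, and their levels are given as a description. Just inside the minimum were Zfp78, Zfp867 and Zfp105, with means of 1.00, 1.01 and 1.01 FPKM, and just outside it Zfp873, Zfp167 and Zfp202, with means of 0.987, 0.949 and 0.941 FPKM.

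Tissue came from male C57BL/6 mice aged 11 weeks, with no engineered allele named in the labels. The cocaine group received intraperitoneal cocaine at 20 mg/kg repeatedly over 1 week, the saline group received saline, and tissue of both was taken 24 h into withdrawal. There were 3 pools of 5 mice in each group, with both hemispheres of each mouse, and all mice of a cage had the same treatment, so cage and treatment cannot be told apart. The deposited table holds 1 value per gene and group and none per pool, so no spread between pools can be given. In bulk tissue, fewer cells of a type and less RNA per cell cannot be told apart.

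Most Zfp genes encode proteins with C2H2 zinc fingers, short modules in which a pair of cysteines and a pair of histidines hold a zinc ion and which, in tandem, read DNA. Many of them also carry a KRAB box, which recruits the corepressor Trim28 and silencing enzymes to retrotransposons and other sites, and KRAB genes often lie in clusters that arose by local duplication. Others act as activators, RNA-binding proteins or subunits of chromatin complexes, and share with the KRAB genes little more than the name.

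The fingers of 4 members that the results turn on show this shared module. Each stretch is the coding sequence of 1 finger and the codons after it (84 bases, from GENCODE vM21 transcripts). Capitals mark the codons of the cysteines and histidines that bind zinc.
Zfp943: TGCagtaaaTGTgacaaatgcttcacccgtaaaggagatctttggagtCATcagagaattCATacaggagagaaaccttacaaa
Zfp560: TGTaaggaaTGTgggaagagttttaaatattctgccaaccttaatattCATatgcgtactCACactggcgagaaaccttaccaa
Zfp157: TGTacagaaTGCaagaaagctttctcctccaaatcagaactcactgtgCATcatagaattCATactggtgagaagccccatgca
Zfp462: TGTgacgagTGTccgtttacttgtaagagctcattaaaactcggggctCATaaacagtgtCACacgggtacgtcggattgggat
In Zfp943, Zfp560 and Zfp157 the last histidine is followed by codons of the conserved linker that joins tandem fingers. Zfp943, Zfp560 and Zfp157 carry 11, 15 and 11 fingers in open reading frames of 507, 754 and 567 residues, and Zfp462 carries 33 in 2495 residues.

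Differences are given as the log2 ratio of the cocaine over the saline value, with a standard error derived from the test statistic of the authors' deposited table (the implied error). A gene is called where the q-value of the authors' deposited table is under 0.05 with status OK. It is not stated whether the spread between pools entered that test. The markers of striatal neurons were high in both groups, with 64.8 to 1943 FPKM after cocaine and 59.1 to 1737 FPKM after saline over 9 genes. Single markers of neighbouring tissue differed between the groups. Transthyretin (Ttr), made in the choroid plexus, had 9.46 FPKM after cocaine and 93.4 FPKM after saline. Of 8 choroid plexus markers 3 passed the level rule, with summed levels of 16.1 FPKM after cocaine and 99.2 FPKM after saline, and none was at 0 after cocaine. Almost all of that difference is Ttr: Clic6 had 5.49 FPKM after cocaine and 4.22 FPKM after saline, and Kl had 1.12 FPKM after cocaine and 1.56 FPKM after saline, both not called. Of 4 cortical markers 2 passed it, with summed levels of 24.0 FPKM after cocaine and 15.4 FPKM after saline, and the glutamate transporter gene Slc17a7 was called higher, while Tbr1 was not called, with 2.62 FPKM after cocaine and 2.41 FPKM after saline. The part of these markers in the results below was not tested.

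As a family the zinc finger genes had a median log2 ratio near 0, and more of the called ones were lower than higher. Of 263 members 25 (9.51%) were called in the authors' deposited table, against 14.6% of all 14202 genes. Of these, 7 members (2.66%) were called higher, against 7.46% of all genes, and 18 (6.84%) were called lower, against 7.18% of all genes. The share called higher was thus below that of all genes, and the share called lower lay near it. The median log2 ratio was -0.04 over the members and 0.04 over all genes. Above 0 were 121 members (46.0%, against 55.1% of all genes) and below 0 were 142. With no minimum on the level the median was 0.0073 over 328 genes, so its sign depends on the level rule. The quartiles lay at -0.24 and 0.19 over the members and at -0.16 and 0.23 over all genes. At least 1.5-fold was reached by 27 of the 263 members and by 1237 of the 14202 genes. A 2-fold difference was reached by 2 members, Zfp943 and Zfp560, and by 263 of the 14202 genes.

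**Figure D1:**
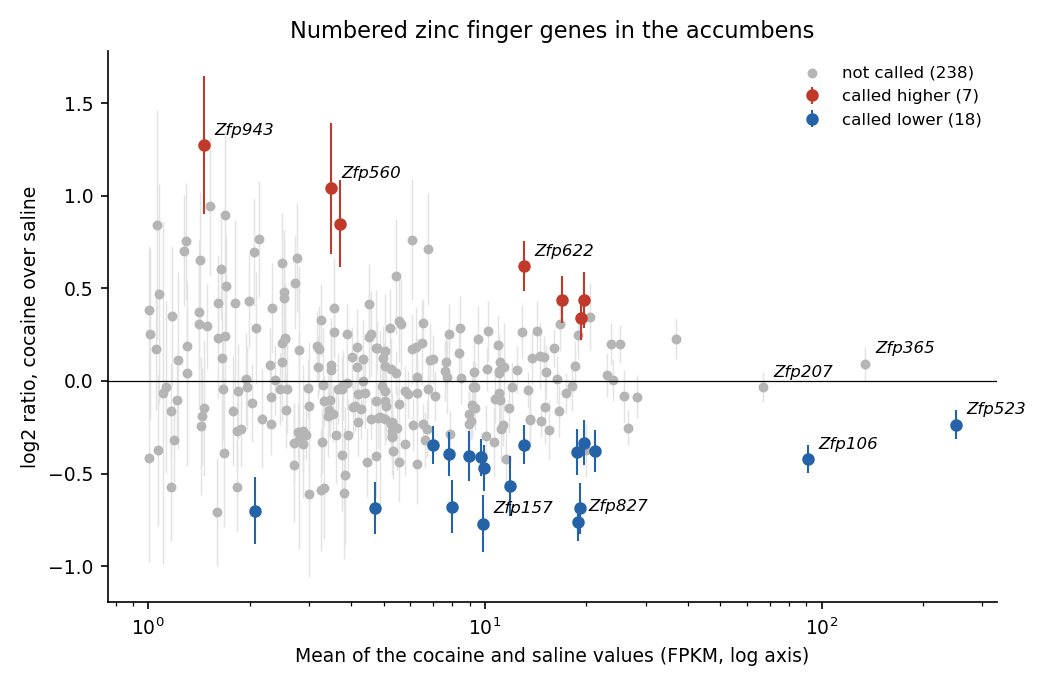
Log2 ratio of cocaine over saline against the mean of the cocaine and saline values (FPKM, log axis) for the 263 zinc finger genes; vertical lines are implied standard errors from the authors' test. The 7 genes called higher and the 18 called lower stand out from the 238 grey genes, whose lines lengthen towards low levels.

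In summed level the family had 2266 FPKM after cocaine and 2367 FPKM after saline, which is 0.436% of all FPKM after cocaine and 0.479% after saline. The median member had 4.76 FPKM after cocaine and 4.90 FPKM after saline, while the median over all genes was 10.3 FPKM after cocaine and 10.1 FPKM after saline. Both medians are over genes with a mean of at least 1 FPKM, and the level was used to choose the members. A few members stood far above the rest. Zfp523, the mouse counterpart of human ZNF76, had 230.2 FPKM after cocaine and 271.1 FPKM after saline. Zfp365, whose product binds the neurodevelopmental protein Disc1, had 138.8 FPKM after cocaine and 130.3 FPKM after saline. Zfp106, an RNA-binding protein needed by motor neurons in mice, had 78.0 FPKM after cocaine and 104.6 FPKM after saline. Zfp207, a spindle assembly factor, followed with 66.3 FPKM after cocaine and 67.9 FPKM after saline. Below it by mean came Zfp706, with 39.8 FPKM after cocaine and 34.0 FPKM after saline, and then Zfp664, Zfp46, Zfp259, Zfp187 and Zfp740.

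The calls followed the level. Among members with a mean of 1 to under 2 FPKM 1 of 47 was called (2.13%, against 3.98% of all genes at that level), and from 2 to under 5 FPKM 4 of 88 (4.55%, against 6.60%). From 5 to under 10 FPKM 7 of 65 members were called, all lower (10.8%, against 11.997%). From 10 to under 20 FPKM the share was 20.4% of 49 members, against 15.6% of all genes, and at 20 FPKM or more it was 21.4% of 14 members, against 24.5%. Read at the same level, the members' share of calls thus lay below that of all genes in 4 of the 5 ranges and above it in the range from 10 to under 20 FPKM. From 5 FPKM up, 4 of 128 members were called higher (3.12%, against 9.65% of all genes from 5 FPKM up) and 16 were called lower (12.5%, against 9.02%).

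**Figure D2:**
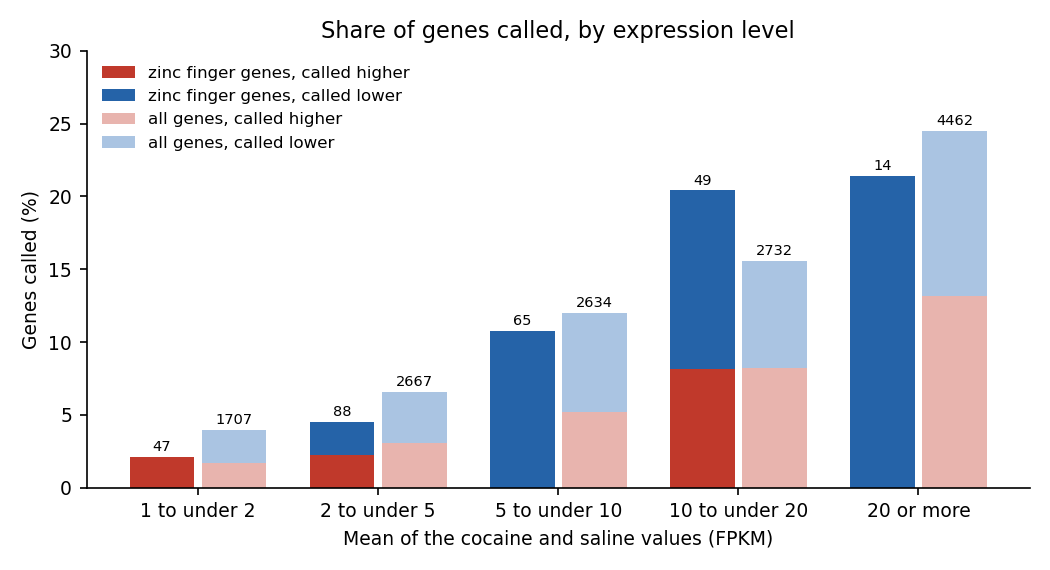
Percent of genes called higher (red) and lower (blue) by mean level in FPKM, for zinc finger genes (dark, left bar of each pair) and all genes (pale, right bar); the number over a bar is the number of genes in it. The zinc finger bars reach 20.4% and 21.4% in the highest 2 ranges, and no zinc finger gene from 5 to under 10 FPKM or at 20 FPKM and more was called higher.

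The genes that fell after cocaine included several large chromatin and transcription regulators. Zfp157, a KRAB zinc finger gene at chr5:138882696-138901922 (mm9), had 7.31 FPKM after cocaine and 12.5 FPKM after saline. The authors' deposited table gives a log2 ratio of -0.77 ± 0.15 and a q of 1.24e-05 for it, the largest fall among the members in fold. Zfp827, whose human counterpart brings the NuRD complex to telomeres, lies at chr8:81552336-81717642 and had 14.05 FPKM after cocaine and 23.8 FPKM after saline. Its log2 ratio of -0.76 ± 0.10 had the smallest q of the family, 1.63e-12, in the authors' deposited table. Zfp462, a chromatin regulator whose human counterpart causes a developmental disorder when a copy is lost, had 14.6 FPKM after cocaine and 23.6 FPKM after saline, and by the authors' deposited table a log2 ratio of -0.69 ± 0.14. Zfp536, a repressor of neuronal differentiation, was low in both groups, with 1.58 FPKM after cocaine and 2.56 FPKM after saline (-0.70 ± 0.18 in the authors' deposited table). These 4 genes were each down by about the same factor although their levels span a wide range.

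Zfp398, another KRAB gene, had 3.61 FPKM after cocaine and 5.81 FPKM after saline. Zfp646 had 6.16 FPKM after cocaine and 9.86 FPKM after saline, and its neighbour Zfp668 had 9.53 FPKM after cocaine and 14.1 FPKM after saline. Zfp646 and Zfp668 are printed with the same locus, chr7:135008684-135039131, so how fragments were divided between them cannot be seen from the table. Zfp106 fell to 78.0 FPKM after cocaine, against 104.6 FPKM after saline, a log2 ratio of -0.42 ± 0.08 with a q of 9.27e-07 in the authors' deposited table. Zfp523, the most abundant member, fell least of the 18, by 0.24 ± 0.08 on the log2 scale with a q of 0.0219 in the authors' deposited table.

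Among the smaller falls were genes with known parts in brain development. Zfp335, which is needed by neural progenitors and whose human counterpart is mutated in a form of microcephaly, had 6.18 FPKM after cocaine and 7.86 FPKM after saline. Zfp609, which acts in cortical progenitors, had 16.3 FPKM after cocaine and 21.2 FPKM after saline. Zfp142, linked in humans to a neurodevelopmental disorder, had 8.37 FPKM after cocaine and 11.1 FPKM after saline. Their log2 ratios were -0.35, -0.38 and -0.41, with q of 0.00886, 0.0200 and 6.47e-04 in the authors' deposited table. Zfp644, a partner of the histone methyltransferases G9a and GLP, had 17.5 FPKM after cocaine and 22.01 FPKM after saline, and was the call nearest the threshold (q of 0.0472 in the authors' deposited table). Zfp148, a GC-box-binding regulator, had 18.5 FPKM after cocaine and 24.0 FPKM after saline. Zfp384, a nuclear matrix transcription factor, had 11.5 FPKM after cocaine and 14.6 FPKM after saline. The remaining called falls, Zfp687, Zfp612 and Zfp64, had log2 ratios of -0.47, -0.41 and -0.39.

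The 7 genes that rose are a mixed set. Zfp943, a KRAB gene at chr17:22099519-22131333 (mm9), had 2.07 FPKM after cocaine and 0.855 FPKM after saline. Its log2 ratio of 1.27 ± 0.37 was the highest of the family (q of 0.00838 in the authors' deposited table). It shares its printed locus with Gm7805 (4.42 FPKM after cocaine, 2.99 FPKM after saline) and Gm7809 (1.73 FPKM after cocaine, 2.01 FPKM after saline). How fragments were divided between these rows cannot be seen. Zfp560, a KRAB gene at chr9:20149580-20189621, had 4.68 FPKM after cocaine and 2.28 FPKM after saline, a log2 ratio of 1.04 ± 0.35 with a q of 0.0309 in the authors' deposited table. Zfp322a, a regulator of pluripotency genes in mouse embryonic stem cells, had 4.77 FPKM after cocaine and 2.65 FPKM after saline. Zfp943 reached the minimum mean through its cocaine value, as did 8 of the 11 members under 1 FPKM in a group. With at least 1 FPKM asked for in both groups it drops out, 6 members are called higher, and Zfp560 has the highest ratio of those called. The rises of Zfp943, Zfp560 and Zfp322a rest on low levels, with implied errors above the family's median of 0.18. The others were more abundant and better determined. Zfp622, a ribosome maturation factor, had 15.8 FPKM after cocaine and 10.3 FPKM after saline, a log2 ratio of 0.62 ± 0.14 with a q of 1.12e-04 in the authors' deposited table. Zfp326, which couples splicing to transcript elongation in the DBIRD complex, had 19.5 FPKM after cocaine and 14.4 FPKM after saline. Zfp637 had 22.7 FPKM after cocaine and 16.8 FPKM after saline, and Zfp428 had 21.6 FPKM after cocaine and 17.1 FPKM after saline. Their log2 ratios were 0.44 and 0.34.

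**Figure D3:**
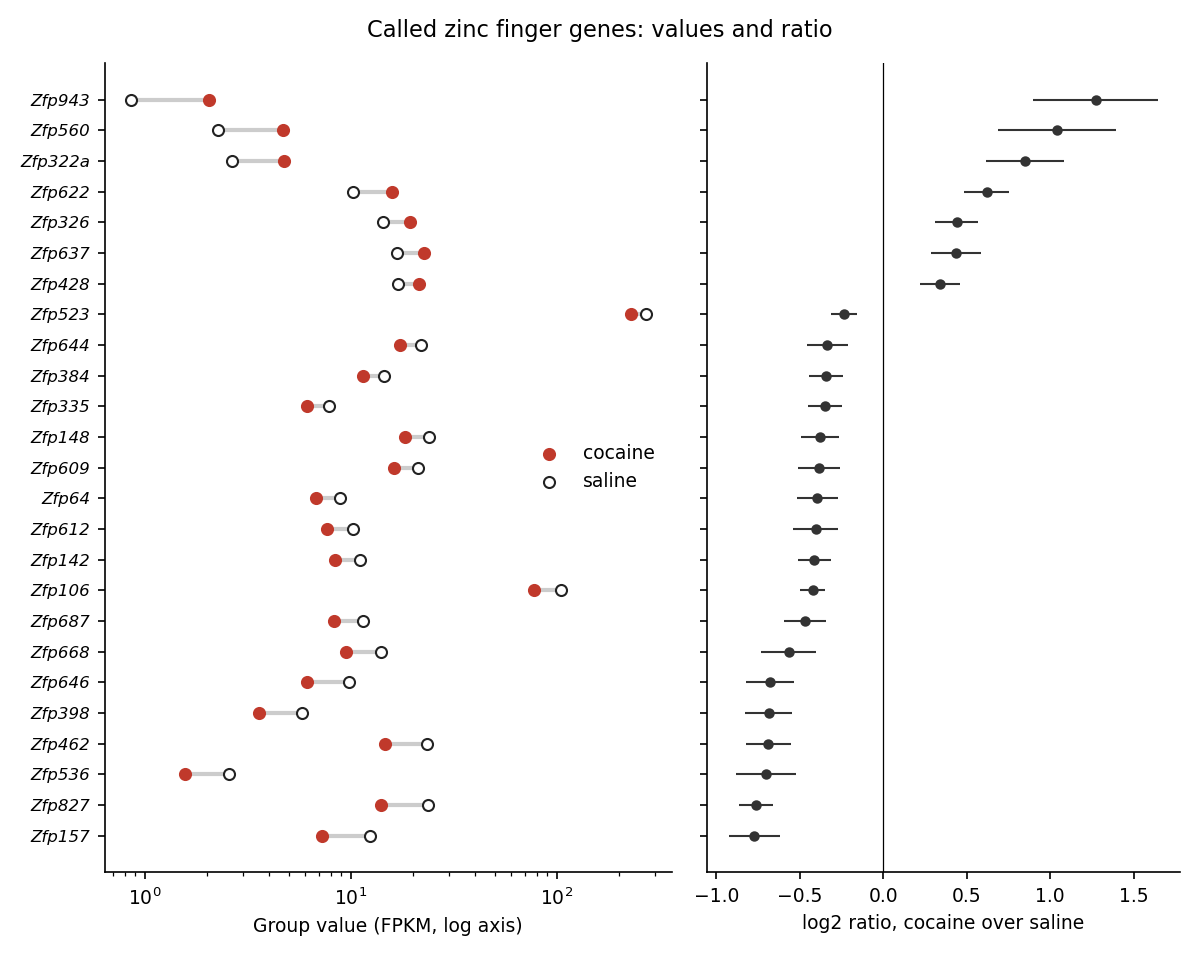
The 25 called zinc finger genes, ordered by ratio: on the left the cocaine value (filled) and the saline value (open) in FPKM on a log axis, on the right the log2 ratio of cocaine over saline with its implied standard error from the authors' test. The ratios run from 1.27 for Zfp943 down to -0.77 for Zfp157.

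The genes that fell had long transcripts. In the longest GENCODE vM21 transcript of each gene, the 18 that fell had a median length of 5776.5 bases and a median open reading frame of 1157.5 residues. The 7 that rose had medians of 2741 bases and 476 residues. Of the 18, 15 lay in the longest of 4 equal bins of all genes (over 4478.5 bases), and of the 7 that rose 2 did.

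Length moved with the ratio over the whole table as well. In the longest bin the median log2 ratio was -0.20 over 84 members and -0.11 over all genes, and 17.9% of the members were called lower, against 19.6% of all genes. In the next bin, which holds 107 members, 1 member was called (0.935%), against 12.4% of all genes. In the lowest of 4 equal bins of GC content the median was 0.17 over 113 members and 0.15 over all genes. In the 3 higher bins it was -0.13, -0.13 and -0.05 over the members and 0.02, -0.01 and -0.01 over all genes. Across members, Spearman's rho of the log2 ratio was -0.36 with GC content and -0.18 with transcript length (262 genes), and across all genes -0.18 and -0.31 (13628 genes). Genes share libraries and are not independent, and the part of length and base composition in the calls was not tested.

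**Figure D4:**
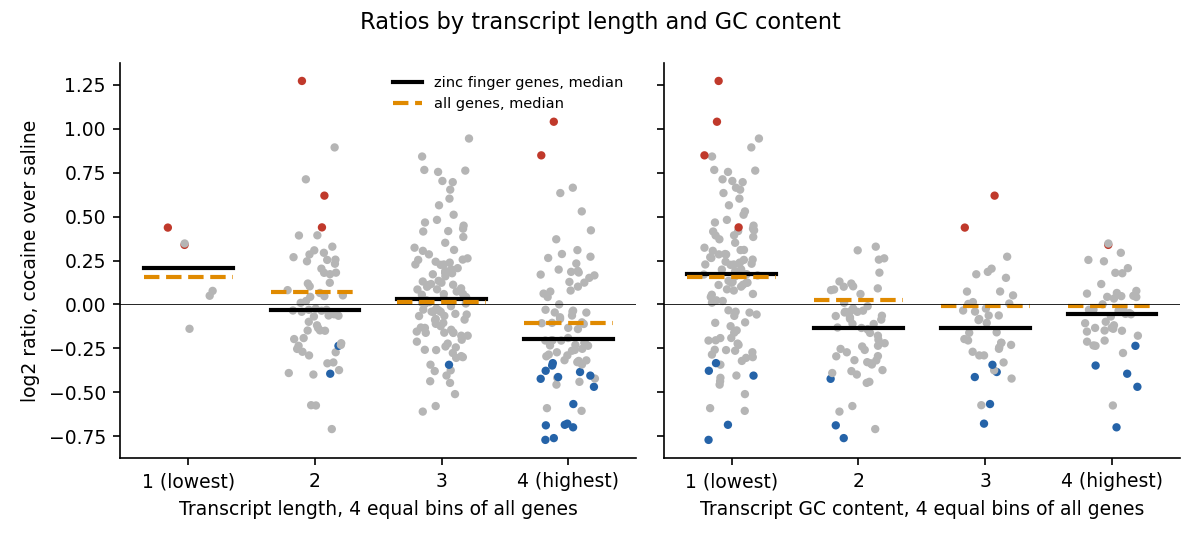
Log2 ratio of cocaine over saline for each zinc finger gene by bin of transcript length and of transcript GC content, with 4 equal bins taken over all genes; red points were called higher, blue points called lower, and bars are medians of the zinc finger genes (black) and of all genes (dashed). Blue points gather in the longest bin, and the medians in the lowest GC bin are 0.17 for the zinc finger genes and 0.15 for all genes.

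Several other members known from work on brain, development or imprinting did not pass the threshold. Zfp189, studied in mice for stress resilience, had 1.84 FPKM after cocaine and 1.55 FPKM after saline, a log2 ratio of 0.24 with a q of 0.722 in the authors' deposited table. Its 95% interval of -0.27 to 0.76 takes in a 1.5-fold rise. Zfp57, which keeps imprints, had 1.22 FPKM after cocaine and 1.99 FPKM after saline, for which the authors' deposited table gives -0.71 ± 0.29 on the log2 scale and a q of 0.103. Zfp521, a regulator of neural differentiation, had 4.76 FPKM after cocaine and 5.84 FPKM after saline. Zfp503, a factor of striatal development, had 5.67 FPKM after cocaine and 5.88 FPKM after saline, and Zfp423 had 3.21 FPKM after cocaine and 3.45 FPKM after saline. Zfp238, a repressor in cortical neurons also named Zbtb18 or RP58, had 25.2 FPKM after cocaine and 21.98 FPKM after saline. Zfp804a, whose human counterpart is a schizophrenia risk gene, had 6.90 FPKM after cocaine and 7.31 FPKM after saline. None of these was called. For Zfp365 the interval ran from -0.09 to 0.27 and for Zfp207 from -0.20 to 0.13, both inside a 1.5-fold change. Over the 238 uncalled members, 130 had a 95% interval within 1.5-fold either way and 108 had one that reached it. An unadjusted p under 0.05 was found in 64 members (24.3%), against 27.1% of all genes, in the authors' deposited table.

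A KRAB A box pattern next to C2H2 fingers was found in the open reading frame of 90 members, and 165 had fingers without the pattern. The pattern is strict, and some known KRAB genes, Zfp57 among them, do not match it. A further 7 members, Zfp259, Zfp330, Zfp365, Zfp503, Zfp703, Zfp781 and Zfp839, had no C2H2 finger of the searched spacing, and 1 had no coding transcript. The genes with the pattern were expressed lower, with a median mean of 3.29 FPKM, against 6.13 FPKM for those without it. Of the 90, 5 were called (5.56%; 2 higher, 3 lower), and of the 165, 20 were called (12.1%; 5 higher, 15 lower), against 14.6% of all genes. Their median log2 ratios were -0.03 and -0.05. The difference between the classes was not tested, and calls grew with the level in all genes. Spearman's rho between the number of fingers and the log2 ratio was -0.00 over 262 members. The most fingers were counted in Zfp142 with 36, Zfp462 with 33 and Zfp236 with 30. Zfp236 was not called, at 8.42 FPKM after cocaine and 9.79 FPKM after saline.

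Trim28 itself, the corepressor of KRAB proteins, had 168.2 FPKM after cocaine and 147.0 FPKM after saline, just short of a call (q of 0.0543 in the authors' deposited table). Setdb1, the histone methyltransferase it recruits, had 9.45 FPKM after cocaine and 9.81 FPKM after saline. Of 18 genes of the KRAB silencing pathway 17 passed the level rule, with a median log2 ratio of 0.05. Mphosph8 (log2 ratio 0.59 ± 0.15), of the HUSH silencing complex, and the deacetylase gene Hdac2 (0.43 ± 0.10) were called higher in the authors' deposited table. Called lower in the authors' deposited table were Atf7ip (-0.42 ± 0.11), a partner of Setdb1, the heterochromatin protein gene Cbx5 (-0.40 ± 0.12) and the NuRD subunit gene Chd3 (-0.21 ± 0.06). Of the 17 genes 2 were thus called higher and 3 lower, while of all genes 7.46% were called higher and 7.18% lower. Mphosph8 and Chd3 each shared their printed locus with other rows.

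Members crowded on a few chromosomes. Chromosome 7 held 74 and chromosome 17 held 24. Runs of at least 3 members with at most 500000 bases between neighbours formed 22 clusters that took in 129 members, and the KRAB pattern was found in 51.9% of clustered members, against 17.2% of the others. Clustered members were called in 5.43% of cases and the 134 others in 13.4%, which is near the 14.6% of all genes, while their median mean levels were 3.92 and 5.99 FPKM. The median log2 ratio was -0.02 in clusters and -0.06 outside. On chromosome 7, 26 members lay above 0 and 48 below, with a median of -0.09, while the 928 other genes of that chromosome had a median of 0.02.

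Among clusters of at least 5 members, the pair on chromosome 17 had the highest median ratios, and it was singled out after its values were seen. In the cluster at chr17:32908181-33495823 (mm9) all 9 members lay above 0, with a median log2 ratio of 0.42. In the cluster at chr17:21704010-23736454 8 of 9 did, with a median of 0.39. Of these 9, Zfp942, Zfp943 and Zfp946 were under 1 FPKM after saline and reached the minimum mean through the cocaine value. Without them 5 of 6 lay above 0, with a median of 0.23, a count added after seeing the data. In the first cluster no member was under 1 FPKM in a group. Of these 18 genes Zfp943 alone was called (5.56%, against 14.6% of all genes). An unadjusted p under 0.05 in the authors' deposited table was found in 5 (27.8%), near the 27.1% of all genes. The single member below 0 was Zfp13, at 9.23 FPKM after cocaine and 9.46 FPKM after saline.

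The genes of these clusters were low and their errors large. Zfp955a had 2.01 FPKM after cocaine and 1.04 FPKM after saline, and the authors' deposited table puts its log2 ratio at 0.95 ± 0.37. Zfp763 had 6.50 FPKM after cocaine and 4.39 FPKM after saline. Zfp81 had 3.22 FPKM after cocaine and 2.23 FPKM after saline, and Zfp945 had 3.04 FPKM after cocaine and 1.955 FPKM after saline. At the low end, Zfp871 had 7.92 FPKM after cocaine and 7.39 FPKM after saline. The median implied error over the 18 genes was 0.31, and most single ratios had an unadjusted p above 0.05 in the authors' deposited table. The 617 other genes of chromosome 17 had a median log2 ratio of 0.02. Among the other genes within the span of the members, the 5 in the cluster of Zfp943 had a median of 0.80, with 4 above 0. The 4 in the cluster of Zfp955a had a median of -0.06, and no other gene of either cluster was called. The value of 0.80 is that of AC154766.1, with 1.93 FPKM after cocaine and 1.11 FPKM after saline. It shares its printed locus with Zfp213, as Gm7805 and Gm7809 do with Zfp943. How fragments were divided between these rows and the members cannot be seen. The 6 members of chromosome 17 outside the clusters had a median of -0.11. Transcripts of the clustered genes were poor in GC, with medians of 40.0% and 37.7% in the clusters, and in the lowest GC bin 59 of 95 members on other chromosomes lay above 0, with a median of 0.12. Near-identical copies can share reads: the median share of a transcript's 31-base words found in another gene was 13.7% in the cluster of Zfp943 and 1.99% in that of Zfp955a.

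**Figure D5:**
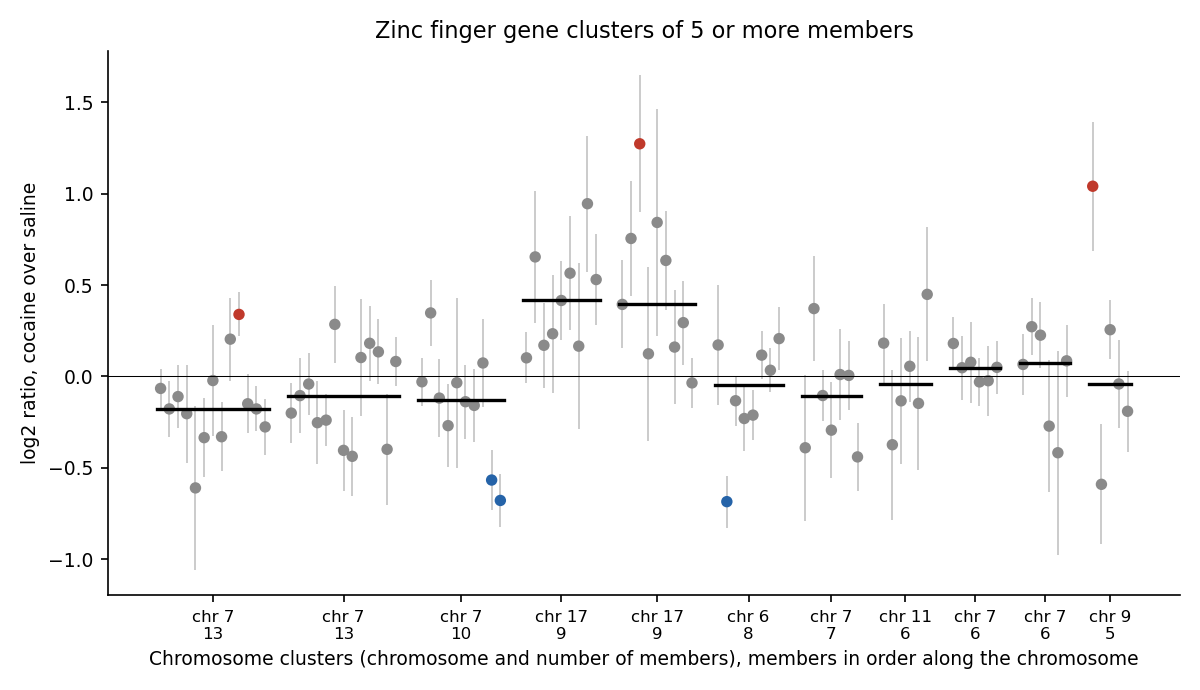
Log2 ratio of cocaine over saline for the members of each chromosome cluster with at least 5 members, in order along the chromosome; vertical lines are implied standard errors from the authors' test, horizontal bars the cluster medians, and labels give the chromosome and the number of members. The medians of the chromosome 17 clusters are 0.42 and 0.39, and the first chromosome 7 cluster has a median of -0.18.

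The other clusters differed in sign among themselves. On chromosome 8 all 4 members of a cluster, Zfp930, Zfp868, Zfp869 and Zfp866, lay above 0, with a median of 0.18 and none called. In the chromosome 7 cluster of 13 members around Zfp235 and Zfp109 (chr7:24866943-26012526), 11 of 13 lay below 0 with a median of -0.18, while the 13 other genes between them had a median of 0.10. Its member Zfp428 was called higher. On chromosome 5 the neighbours Zfp113, Zfp157 and Zfp68 all lay below 0, and Zfp157 was called. A cluster of 4 on chromosome 13 had a median of 0.51 without a call: Zfp874a had 2.69 FPKM after cocaine and 1.58 FPKM after saline, and Zfp748 had 2.50 FPKM after cocaine and 3.12 FPKM after saline. On chromosome 9 Zfp560 was called higher at 1.04 while its neighbour Zfp26 was not called, with -0.59 ± 0.33 in the authors' deposited table. Zfp26 is printed with the same locus as Zfp266 (log2 ratio -0.04) and Zfp426 (0.26), so how fragments were divided between them cannot be seen. Zfp809, which silences retroviruses in mouse embryonic stem cells and lies in another chromosome 9 cluster, had 4.05 FPKM after cocaine and 3.085 FPKM after saline and was not called. With at most 200000 bases between neighbours the clusters numbered 18 with 102 members, and with at most 1000000 bases 22 with 139.

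Zfp943 and Zfp942 of the chromosome 17 cluster start 95 bases apart on opposite strands, so that their promoter windows overlap. Zfp942 had 1.63 FPKM after cocaine and 0.966 FPKM after saline, a log2 ratio of 0.75 ± 0.31 that was not called (q of 0.108 in the authors' deposited table). Both genes of the divergent pair were thus higher after cocaine in value. The window of Zfp943 is shown because the pair shares it: 250 bases before to 50 after the start, from RefSeq on GRCm38.p6, a later build than that of the table, with the 194 bases shared with the window of Zfp942 in capitals.
Zfp943 (chr17:21962309-21962608, plus strand): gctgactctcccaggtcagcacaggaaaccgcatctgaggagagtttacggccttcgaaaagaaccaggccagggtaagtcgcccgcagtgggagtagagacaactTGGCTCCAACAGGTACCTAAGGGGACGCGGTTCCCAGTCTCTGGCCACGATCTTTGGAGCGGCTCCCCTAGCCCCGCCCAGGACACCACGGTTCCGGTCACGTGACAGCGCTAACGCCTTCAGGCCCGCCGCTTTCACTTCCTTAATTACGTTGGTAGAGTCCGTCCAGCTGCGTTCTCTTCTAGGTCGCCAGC
Among the promoter windows of RefSeq, 12 members had a divergent neighbour with a measured level, and in 7 of the 12 member and neighbour had the same sign, with Zfp942 and Zfp943 counted from each side. Besides Zfp942 and Zfp943 these include Zfp189, whose neighbour Mrpl50, a mitochondrial ribosomal protein gene, was called higher with 10.2 FPKM after cocaine and 7.02 FPKM after saline. In the opposite case Zfp277 had 6.45 FPKM after cocaine and 5.72 FPKM after saline while its neighbour Dock4 was called lower, with 14.3 FPKM after cocaine and 18.6 FPKM after saline. In no pair were both genes called.

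RefSeq windows of 300 bases were found for 215 members (271 windows), and 48 members had none. They were rich in CG, with a median of 16 CG dinucleotides, against 7 over all 32851 windows. All windows include those of genes at any level, while the members passed the level rule. Family and level therefore cannot be told apart in the shares below. The letters CCGGAAGT, bound by ETS factors, stood on either strand in 10.3% of member windows, against 3.89% of all windows. AAGATGGC (YY1) stood in 5.90%, against 2.75%, the NRF1 palindrome in 3.69%, against 0.971%, and TGACGTCA, the cyclic AMP response element bound by CREB, in 3.32%, against 1.79%. TATAAA stood in 8.12% of member windows, against 13.6%, and TGANTCA (AP-1) in 4.06%, against 7.81%. None of the patterns contains another. These shares are a description, and a match does not mark a bound site.

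Of the called members, Zfp523 and Zfp335 held the cyclic AMP response element, in 2 of 30 windows (6.67%, against 3.32% of member windows). Zfp157 held the YY1 letters, in 1 of 30 windows (3.33%, against 5.90%). A further window of Zfp523 held none of the searched letters. The windows with these matches are printed (RefSeq, GRCm38.p6), and capitals mark the matches.
Zfp523 (chr17:28176946-28177245, plus strand): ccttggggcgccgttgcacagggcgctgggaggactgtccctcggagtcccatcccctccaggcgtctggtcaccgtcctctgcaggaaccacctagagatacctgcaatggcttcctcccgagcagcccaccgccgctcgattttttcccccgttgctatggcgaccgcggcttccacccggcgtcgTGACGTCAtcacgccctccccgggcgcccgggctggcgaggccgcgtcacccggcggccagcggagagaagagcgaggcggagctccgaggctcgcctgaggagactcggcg
Zfp335 (chr2:164911701-164912000, minus strand): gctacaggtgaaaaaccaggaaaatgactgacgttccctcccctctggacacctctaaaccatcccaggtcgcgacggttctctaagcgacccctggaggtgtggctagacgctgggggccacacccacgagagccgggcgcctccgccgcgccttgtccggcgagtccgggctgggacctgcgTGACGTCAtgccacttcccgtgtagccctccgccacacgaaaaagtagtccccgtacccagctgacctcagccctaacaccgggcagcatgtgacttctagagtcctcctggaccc
Zfp157 (chr5:138441226-138441525, plus strand): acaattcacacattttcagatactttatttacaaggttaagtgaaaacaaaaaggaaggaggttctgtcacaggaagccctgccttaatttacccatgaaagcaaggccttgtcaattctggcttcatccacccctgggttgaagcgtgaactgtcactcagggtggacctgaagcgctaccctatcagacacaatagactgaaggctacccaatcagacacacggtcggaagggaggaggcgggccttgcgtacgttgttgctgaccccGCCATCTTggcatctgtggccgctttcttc
Matches to the ETS letters were found in windows of Zfp142 and Zfp384, in 3 of 30 windows (10%, against 10.3% of member windows). TATAAA was found in those of Zfp827 and Zfp428, in 2 of 30 windows (6.67%, against 8.12%). Zfp827 and Zfp428 were called in opposite directions. In the 30 windows of called members neither the AP-1 nor the NRF1 letters were found, against 4.06% and 3.69% of member windows. At such shares 30 windows are too few to show a lack of either. The 30 windows belong to 21 of the 25 called members.

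Of the 263 members 59 shared their printed locus with another row of the table, and 10 of the 25 called members did. Of the 59, 7 shared it with another member. Zfp142 is the clearest case: it lies in a locus with Plcd4, a phospholipase C gene that was called higher, with 10.003 FPKM after cocaine and 6.94 FPKM after saline. Alone in their locus were 204 members, of which 5 were called higher and 10 lower. Calls made up 7.35% of these 204 members and 16.9% of the 59, against 12.9% of all genes alone in their locus and 17.4% of those sharing one. Zfp157, Zfp827, Zfp462, Zfp536, Zfp398, Zfp622 and Zfp560 were each alone in their locus.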

How the data were processed

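RNA of the nucleus accumbens was sequenced in 3 pools per group. Per the submitters' processing notes, CASAVA, TopHat and Cuffdiff were used with mm9 and NCBIM37; their versions and settings are not given in the sources used. The authors deposited 1 FPKM value per gene and group (normalised to length and mapped fragments; the unit is read from the Cuffdiff layout), together with their p-value, a test statistic and a q-value. The deposited q-value and statistic are treated as a score, since q is not limited to 1. The statistic had the opposite sign to the log2 ratio in 100% of the status OK rows, so directions rest on the group names per the file headers. Depth is unknown.

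Here 1 row per symbol (the highest mean), status OK and a mean of at least 1 FPKM were kept of 35406 rows, log2 ratios were computed without a pseudocount, and the implied standard error is the size of the log2 ratio over that of the statistic, with 95% intervals from it. Rows that print several symbols were not used. No list test was run. The members and lists were chosen with earlier results of these data known. Named are all called members, the 10 of highest mean, those next to the minimum and the extremes of each cluster. Also named are the 3 with most fingers, called corepressor genes and genes fixed by name, and a part of all these is printed. Zfp277, Zfp113, Zfp703 and other members that complete a small count or a neighbouring pair were picked after their values were seen. So were the further genes of the chromosome 17 clusters. Starts were written 1-based.

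Transcript length, GC content, open reading frames and 31-base words came from GENCODE vM21 (a transcript for 100% of members and 96.0% of all genes). The plan named RefSeq proteins, and the longest open reading frame of coding transcripts was used in their place. A finger is C, 2 to 4 residues, C, 12 residues, H, 3 to 5 residues, H; the KRAB pattern is F, any, D, V, 3 any, F, 3 any, E, W. No coordinates were converted between builds. Steps were tested on simulated data. Python 3.11.15, pandas 2.3.3, numpy 2.4.6, scipy 1.17.1 and matplotlib 3.10.9 were used.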

Additional observations from a re-analysis of the deposited data

How the results depend on the processing

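Over 13 alternatives, the count of members called higher (7) was 4 with a mean of at least 5 FPKM, 4 at a q under 0.01 and 4 where at least 1.5-fold was asked for, and it lay within 1.5 times of 7 under the others, up to 9 at a q under 0.1. The count called lower (18) was 10 for rows alone in their locus and 6 at 1.5-fold or more, and was 24 at a q under 0.1. The median log2 ratio of -0.04 was 0.0073 with no minimum on the level, over 328 members above 0 in both groups, so its sign rests on the level rule. Minus the median of all genes (0.04) it was -0.072, with 112 members above 0 and 151 below, and 17 of the 18 genes in the chromosome 17 clusters stayed above 0. For the named members, centring on the median of all genes turned the sign of Zfp251 (-0.023), Zfp740 (-0.033) and Zfp868 (-0.016), whose ratios were near 0, and of none of the other 78. A pseudocount or recomputed adjustment cannot turn a sign, and the recomputed adjustment changed no call among them. Added after seeing the data were members with at most 5% of their 31-base words in another gene (5 higher, 13 lower), the members without chromosome 17 (6 higher, 17 lower) and a KRAB pattern ending in W or L (96 members, 5 called). The cause of these shifts was not tested, other than that fewer genes are counted under a stricter rule. No paired analysis was possible because the table holds 1 value per group and none per pool, and leaving out single pools was not run for the same reason. Errors are those of the authors' test, and 108 uncalled members could have changed by 1.5-fold within theirs.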

Other observations

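Zinc finger families with other names were mostly called lower where they were called. The 20 Klf and Sp genes, which bind GC and CACC boxes, had a median log2 ratio of -0.16. Of them 1 was called higher (5%, against 7.46% of all genes) and 5 lower (25%, against 7.18%). Klf2, a vascular and immune cell factor, rose to 2.37 FPKM after cocaine, against 0.827 FPKM after saline, and the authors' deposited table gives 1.52 ± 0.28 for its log2 ratio. Klf7, a regulator of neuronal outgrowth, fell to 4.92 FPKM after cocaine, against 8.44 FPKM after saline. Sp1 fell to 8.61 FPKM after cocaine, against 14.6 FPKM after saline, with a q of 0.0277 in the authors' deposited table, and Klf12, Klf5 and Sp2 fell by 0.63, 0.47 and 0.42 on the log2 scale. Of 28 Zbtb genes 6 lay above 0, with a median of -0.09. Of the 28, 2 were called, both lower (7.14%, against 7.18% of all genes). These were Zbtb20, a factor of hippocampal and glial development, at 11.4 FPKM after cocaine and 20.0 FPKM after saline, and Zbtb4, at 22.2 FPKM after cocaine and 32.0 FPKM after saline. Among 9 Zkscan genes 1 (11.1%), Zkscan2, was called lower, at 4.42 FPKM after cocaine and 7.07 FPKM after saline. None of 6 Zscan genes was called or had an unadjusted p under 0.05 in the authors' deposited table. The genes of these families were named after their values were seen. Of the called ones, Klf7, Sp2 and Zbtb20 shared their printed locus with other rows.

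Of the 68 tested zinc finger genes under the level minimum, 3 were called in the authors' deposited table. Over all status OK rows at any level 11.9% were called, and the share under the minimum alone was not computed. Zfp473 had 0.196 FPKM after cocaine and 0.984 FPKM after saline, Zfp101 had 1.07 FPKM after cocaine and 0.344 FPKM after saline, and Zfp125 had 0.0672 FPKM after cocaine and is listed at 0 after saline. The early-response gene Zfp36 lay just under the minimum with 0.941 FPKM after cocaine and 0.913 FPKM after saline, and was not called.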
